A study of Mus musculus with 6 samples.

Results

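The genes of fatty acid, triglyceride and sterol synthesis were examined in skeletal muscle of mice bearing the C26 tumor, a colon carcinoma cell line that causes cachexia, and of tumor-free mice. The genes were taken from a list of 42 SREBP pathway and lipid synthesis genes, and 39 of them have a named probe set among the 21212 of the array. Acat2, Hmgcs1 and Idi1, which act early in the mevalonate pathway, are not named here and are not reported. Male CDF1 mice, 8 weeks old when the experiment began, received C26 cells in 150 µL of PBS/matrigel under the skin of both flanks (4 mice) or PBS/matrigel alone (3 mice). Gastrocnemius and plantaris muscles were taken 25 days later. Each array received a pool of RNA from 2 to 3 muscles, with 3 C26 pools (replicates 1, 3 and 4) and 3 control pools (replicates 1, 2 and 3) on Affymetrix whole-transcript arrays. Pools of a group may share a mouse, so p-values measure only the spread between these pools. The whole limb muscle was extracted, so fewer cells of a type and less RNA per cell cannot be told apart.

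Cells make fatty acids from citrate carried out of the mitochondria, which is split to acetyl-CoA, carboxylated to malonyl-CoA and built into palmitate. Palmitate is then elongated, desaturated and esterified to glycerol. Cholesterol is built from the same acetyl-CoA through mevalonate, squalene and lanosterol. Transcription of most of these enzymes is driven by the SREBP proteins, which sit in the endoplasmic reticulum as inactive precursors. Scap escorts them to the Golgi for cleavage, and Insig proteins hold the complex back when sterols are plentiful. SREBP-1c, from Srebf1, is induced by insulin and favors fatty acid genes, and SREBP-2, from Srebf2, favors sterol genes. ChREBP, from Mlxipl, answers to sugar metabolites. In skeletal muscle this pathway is less active than in liver and adipose tissue.

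The arrays were comparable in scale, with medians between 4.93 and 5.02 (log2 RMA value, a background-corrected and quantile-normalized signal). Correlations were 0.994 to 0.996 within groups and 0.976 to 0.981 between groups. All 12 skeletal muscle markers examined, among them Acta1, Ckm, Atp2a1 and Ttn, were measured, with a mean of 11.95 to 12.01 in C26 pools and 12.11 to 12.16 in control pools. Probe sets of olfactory and vomeronasal receptors gave a background level of 3.82, and all 39 genes lay above it in both groups. Control replicate 3 was often the lowest control pool in these genes. It lay below both other control pools in 28 of 39 genes, and in all 12 genes of fatty acid synthesis, desaturation and elongation, whereas it did so in 35.5% of all probe sets. In those 12 genes its median distance from the mean of control replicates 1 and 2 was −0.35. It was also the lowest control pool in 10 of the 12 skeletal muscle markers, at a median distance of −0.04. Among the 10 Schwann cell markers measured it was the lowest in 3, at −0.02. Changes are therefore also given against control replicates 1 and 2 and against control replicate 3 for Insig1, Mlxipl and the called genes in which these differed most.

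Genes that rose or fell are those with a limma p of 0.05 or less after adjustment over all 21212 probe sets and a change of 1.5-fold or more. In C26 muscle 13 of the 39 genes fell (33.3%), against 4.95% of all probe sets, and 2 rose (5.13%), against 5.94%. The other 24 were not called. Without the minimum fold, 22 genes were lower (56.4%), against 15.8% of all probe sets, and 2 were higher, against 14.3%. Every C26 pool lay below every control pool in 24 genes (61.5%), against 24.6% of all probe sets, and above in 2, against 19.3%. The median log2 fold change of the 39 genes was −0.47, and that of all probe sets was −0.05. The genes that fell were Srebf1, Mlxipl, Acly, Fasn, Thrsp, Scd1, Scd2, Elovl6, Fads2, Gpam, Tm7sf2, Nsdhl and Dhcr7. Lpin1 and Fdft1 rose. Leaving out any 1 pool gave 10 to 14 genes lower and 2 higher.

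**Figure D1:**
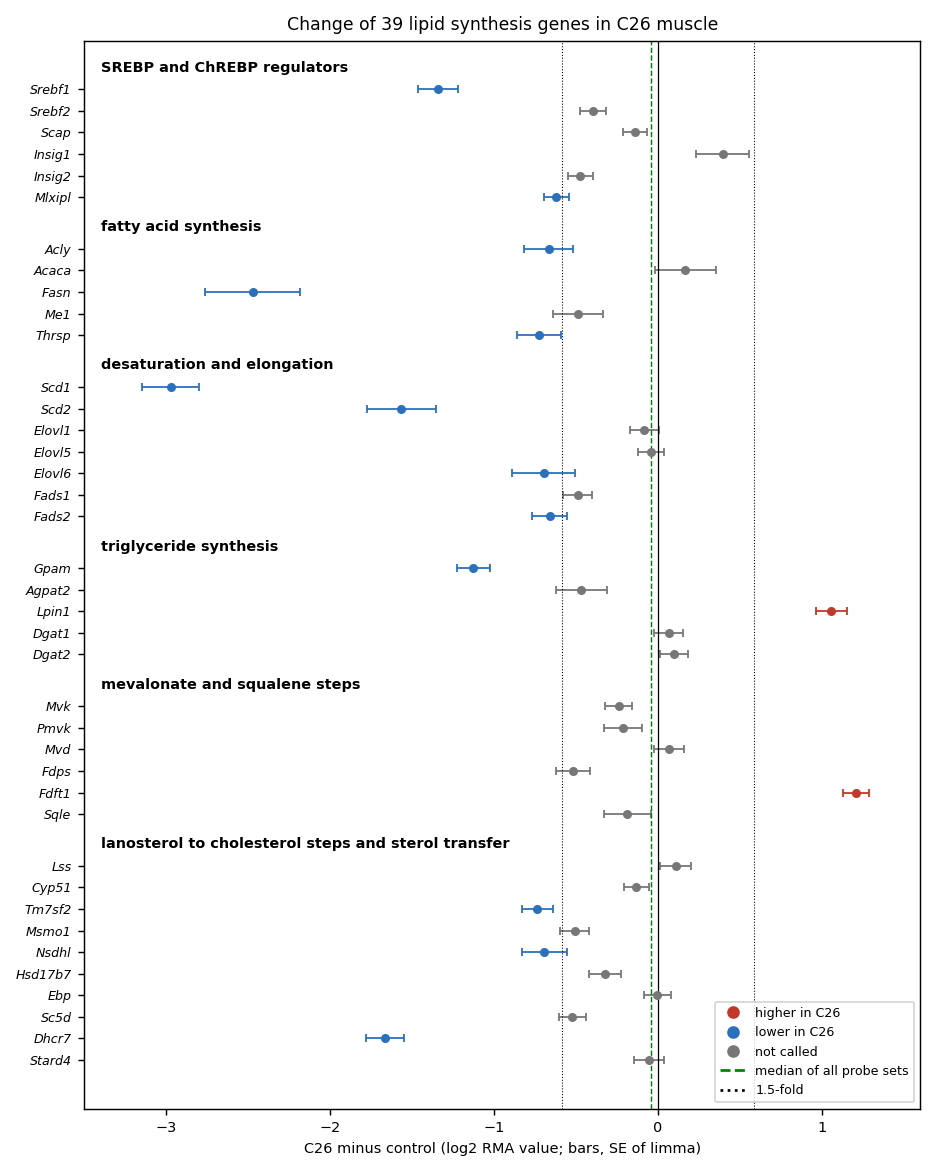
Log2 fold change (C26 minus control, x axis) of the 39 genes, grouped by arm of the pathway, with SE from limma over 3 pools each; dotted lines mark 1.5-fold and the dashed line the median of all probe sets (−0.05). Scd1 (−2.97) and Fasn (−2.47) lie farthest to the left, and only Lpin1 and Fdft1 are colored as higher.

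The arms differed in their counts. Of the 12 genes of fatty acid synthesis, desaturation and elongation, 7 fell, none rose and the median change was −0.66. Of the 16 sterol genes measured, 3 fell, 1 rose and the median was −0.23. The mean log2 value over the 12 fatty acid genes was 6.24 in each C26 pool, against 6.82 to 7.29 in control pools. That over the 16 sterol genes was 5.43 to 5.52 in C26 pools, against 5.70 to 5.83 in control pools. The summed linear signal of the 12 fatty acid genes was 1411 to 1645 in C26 pools, against 2800 to 4000 in control pools. That of the 16 sterol genes went the other way, with 1725 to 1771 in C26 pools, against 1276 to 1337 in control pools. Fdft1, which rose, has the highest signal of these 16 genes and weighs most in their sum. Of the 16 genes, 13 had a lower mean log2 value in C26 pools than in control pools. Whether the arms differ was not tested.

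Sequences upstream of the genes are shown for 4 members, chosen because they fell far (Fasn, Dhcr7), rose (Lpin1) or hold the searched sterol regulatory element (Mlxipl). The RefSeq sequences used here cover 30 of the 39 genes, with 42 start sites (build GRCm38.p6, the 250 bases before each start). Those of Scd1, Scd2, Fads1, Dgat1, Dgat2, Fdps, Fdft1, Sqle and Stard4 were not analysed here. Motifs were searched on both strands and are printed in capitals. They were the sterol regulatory element TCACNCCAC, which SREBP binds, the E-box CACGTG, which SREBP-1 and ChREBP partners can bind, and CCAAT, bound by the NF-Y complex that acts beside SREBP. The CCAAT box reads ATTGG on the other strand, and no match of 1 of these motifs overlapped a match of another. The sequences below run 5′ to 3′ in the direction of the gene. Fasn is at chr11:120824548-120824797 (minus strand), Dhcr7 at chr7:143829964-143830213 (plus, the most downstream of its 3 starts), Mlxipl at chr5:135106641-135106890 (plus, the downstream of its 2 starts) and Lpin1 at chr12:16610967-16611216 (minus).
Fasn: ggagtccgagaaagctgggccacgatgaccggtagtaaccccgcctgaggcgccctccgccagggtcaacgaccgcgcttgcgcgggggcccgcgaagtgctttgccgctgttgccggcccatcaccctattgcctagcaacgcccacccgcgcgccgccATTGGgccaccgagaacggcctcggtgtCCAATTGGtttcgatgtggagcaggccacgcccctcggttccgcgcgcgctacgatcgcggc
Dhcr7: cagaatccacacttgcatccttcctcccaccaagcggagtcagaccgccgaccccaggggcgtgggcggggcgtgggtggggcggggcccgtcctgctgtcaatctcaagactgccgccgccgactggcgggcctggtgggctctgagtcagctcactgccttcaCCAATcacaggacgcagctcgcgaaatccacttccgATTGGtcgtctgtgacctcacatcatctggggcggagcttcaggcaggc
Mlxipl: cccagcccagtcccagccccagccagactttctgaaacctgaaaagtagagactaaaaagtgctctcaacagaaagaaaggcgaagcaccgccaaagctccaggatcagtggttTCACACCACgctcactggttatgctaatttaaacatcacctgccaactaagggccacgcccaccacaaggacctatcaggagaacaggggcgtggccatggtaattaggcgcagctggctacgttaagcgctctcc
Lpin1: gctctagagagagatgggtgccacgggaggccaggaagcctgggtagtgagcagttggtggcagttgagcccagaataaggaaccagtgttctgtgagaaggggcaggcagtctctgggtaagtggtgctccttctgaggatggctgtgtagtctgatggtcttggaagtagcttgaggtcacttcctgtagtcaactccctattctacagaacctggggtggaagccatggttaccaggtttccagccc
The Fasn window holds 3 CCAAT matches, of which 2 overlap in the run of capitals nearest the start. That of Dhcr7 holds 2 CCAAT matches and that of Mlxipl 1 sterol regulatory element, and in the Lpin1 window none of the 3 motifs was found. Windows not shown hold an E-box for Dhcr7, and an E-box and a CCAAT match for Mlxipl. CCAAT was found in 24 of the 42 windows (57.1%), against 33.8% of 32851 upstream windows in the genome. The E-box was found in 7 (16.7%), against 6.02%, and the sterol regulatory element in 1 (2.38%), against 1.05%. A match is a string of letters, not a measured binding site, and a window without one says nothing about the factor.

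Of the 6 regulators, Srebf1 and Mlxipl fell and none rose, and the median change was −0.44. Srebf1, the gene of SREBP-1, had log2 values of 6.76, 6.63 and 6.51 in C26 pools and 8.10, 8.13 and 7.71 in control pools. The groups did not overlap, and the lowest control pool lay well above the highest C26 pool. The log2 fold change was −1.34 (SE 0.12, adjusted p = 0.000103, limma), a 2.54-fold lower value. Against control replicates 1 and 2 it was −1.48, and against control replicate 3 it was −1.08. Probe sets stand for whole genes here, so the SREBP-1a and SREBP-1c transcripts were not told apart.

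Mlxipl, the gene of ChREBP, had 7.89, 7.82 and 7.87 in C26 pools and 8.53, 8.50 and 8.41 in control pools. Its pools were tight and did not overlap, and the log2 fold change was −0.62 (SE 0.07, adjusted p = 0.000381), just past the 1.5-fold minimum. It was −0.66 against control replicates 1 and 2 and −0.55 against control replicate 3. With the arrays centred on their medians it was −0.56 and was not called. Srebf2, the gene of SREBP-2, had 6.68, 6.52 and 6.53 in C26 pools and 7.04, 6.95 and 6.93 in control pools. Every C26 pool was below every control pool, but the change of −0.40 (SE 0.08, adjusted p = 0.00589) was under 1.5-fold. Scap, the escort of SREBP, had a change of −0.14 (adjusted p = 0.180).

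Neither of the Insig genes, whose proteins retain the Scap complex, was called. Insig1, itself a well-known SREBP target, had 7.37, 7.57 and 7.76 in C26 pools and 7.43, 7.25 and 6.83 in control pools. The groups overlapped, and the change was 0.39 (SE 0.16, adjusted p = 0.1001). It was 0.22 against control replicates 1 and 2 and 0.74 against control replicate 3. Insig2 had 7.74, 7.60 and 7.62 in C26 pools and 8.15, 8.16 and 8.07 in control pools, with no overlap. Its change was −0.47 (SE 0.08, adjusted p = 0.00190) and under 1.5-fold.

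In fatty acid synthesis, 3 of 5 genes fell and none rose, with a median change of −0.67. Fasn, the synthase that builds palmitate, had 5.71, 5.42 and 5.35 in C26 pools and 8.41, 8.31 and 7.18 in control pools. The groups were far apart, although the control pools were spread, with control replicate 3 lowest. The log2 fold change was −2.47 (SE 0.29, adjusted p = 0.000338), which is 5.55-fold lower and the 27th lowest of all probe sets. Against control replicates 1 and 2 it was −2.86 and against control replicate 3 it was −1.69. Fasn was not called by a test with unequal variances (adjusted p = 0.0896).

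Acly, which splits citrate to give cytosolic acetyl-CoA, had 6.17, 6.32 and 6.33 in C26 pools and 7.19, 7.06 and 6.57 in control pools. The groups did not overlap, and the change was −0.67 (SE 0.15, adjusted p = 0.00967). It was −0.85 against control replicates 1 and 2 and −0.30 against control replicate 3. Without control replicate 1 it was −0.54 and was not called. Tests with equal (adjusted p = 0.0898) or unequal variances (adjusted p = 0.179) did not call it either. The call was also lost with the replicate number as a block (adjusted p = 0.0545, limma). That fit takes the change from replicates 1 and 3 alone. Replicate 2 had only a control pool and replicate 4 only a C26 pool. Thrsp, the gene of Spot 14, a small protein that promotes lipogenesis, had 5.23, 4.83 and 5.19 in C26 pools and 5.89, 5.94 and 5.60 in control pools. It fell without overlap, with a log2 change of −0.73 (SE 0.13, adjusted p = 0.00353). The change was −0.83 against control replicates 1 and 2 and −0.51 against control replicate 3, and tests with equal (adjusted p = 0.0530) or unequal variances (adjusted p = 0.0741) did not call it.

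Neither Acaca nor Me1 was called. Acaca, the cytosolic acetyl-CoA carboxylase that makes malonyl-CoA, had 5.05, 5.76 and 5.27 in C26 pools and 5.40, 5.23 and 4.94 in control pools. The groups overlapped, and the change was 0.17 (SE 0.18, adjusted p = 0.549). Me1, the malic enzyme that supplies NADPH for synthesis, had 9.65, 9.57 and 9.07 in C26 pools and 9.98, 10.03 and 9.75 in control pools. Its pools did not overlap, and its change was −0.49 (SE 0.15, adjusted p = 0.0416), under 1.5-fold. Without C26 replicate 1 it was −0.60 and was called, whereas without C26 replicate 4 it was −0.31 (adjusted p = 0.0817) and with the replicate block −0.26 (adjusted p = 0.211).

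**Figure D2:**
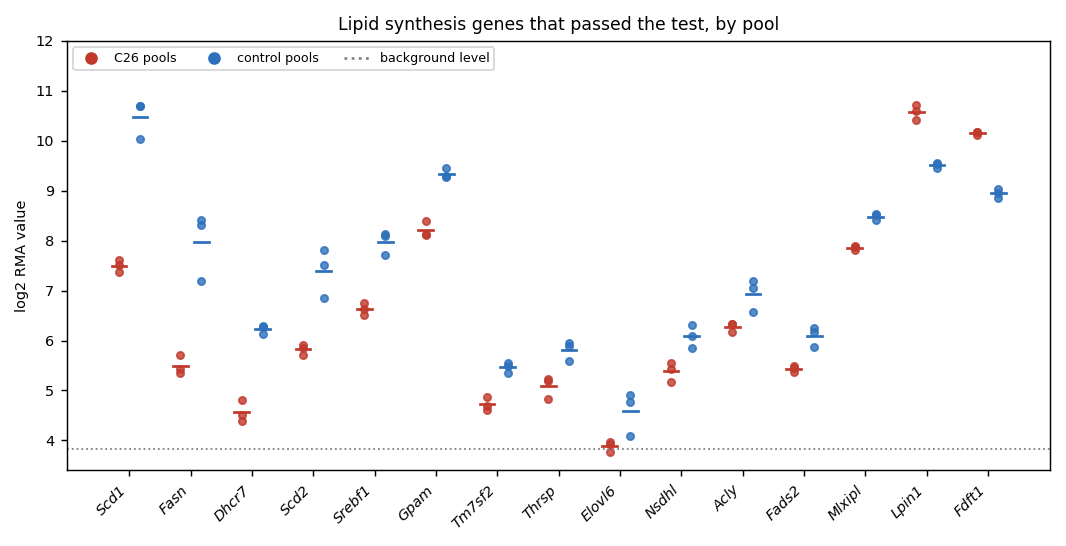
Log2 RMA values (y axis) of the 15 genes that passed the test, ordered by change, with 1 point per pool, C26 left of control, and a bar at each group mean; the dotted line is the background level (3.82). In all 15 genes the groups do not overlap, the lowest control point of Fasn, Scd1, Scd2 and Elovl6 is replicate 3, and Elovl6 lies near the background.

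In desaturation and elongation, 4 of 7 genes fell and none rose, with a median change of −0.66. Scd1, the stearoyl-CoA desaturase that makes oleate and palmitoleate, had 7.61, 7.37 and 7.52 in C26 pools and 10.69, 10.70 and 10.03 in control pools. The C26 pools were close together and more than 2 log2 units below the lowest control pool. The log2 fold change was −2.97 (SE 0.17, adjusted p = 1.14e-05), which is 7.85-fold lower and the 10th lowest of all probe sets. It was −3.19 against control replicates 1 and 2 and −2.53 against control replicate 3.

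Scd2, the paralog of Scd1 with the same reaction, had 5.70, 5.92 and 5.86 in C26 pools and 7.52, 7.81 and 6.85 in control pools. The groups did not overlap, and the change was −1.57 (SE 0.21, adjusted p = 0.00074), or 2.96-fold. Against control replicates 1 and 2 it was −1.84, and against control replicate 3 it was −1.02. As with Fasn, a test with unequal variances did not call it (adjusted p = 0.110).

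Elovl6 elongates palmitate to stearate and had 3.92, 3.77 and 3.97 in C26 pools and 4.91, 4.77 and 4.09 in control pools. These are low signals, and 1 C26 pool was under the background level. The change was −0.70 (SE 0.19, adjusted p = 0.0239), with −0.95 against control replicates 1 and 2 and −0.20 against control replicate 3. The call was lost without any 1 of the other pools, with changes of −0.54 (without control replicate 1), −0.61 (without control replicate 2), −0.72 (without C26 replicate 1), −0.64 (without C26 replicate 3) and −0.74 (without C26 replicate 4). Tests with equal (adjusted p = 0.150) or unequal variances (adjusted p = 0.249) did not call it either.

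The fatty acid desaturases of the polyunsaturated pathway were both below the controls without overlap. Fads2 had 5.37, 5.48 and 5.46 in C26 pools and 6.17, 6.25 and 5.88 in control pools and fell, with a change of −0.66 (SE 0.11, adjusted p = 0.00182). Its change was −0.77 against control replicates 1 and 2 and −0.44 against control replicate 3. Without control replicate 2 it was −0.58 and just under 1.5-fold, and a test with unequal variances did not call it (adjusted p = 0.0977). Fads1 had 6.73, 6.71 and 6.91 in C26 pools and 7.31, 7.34 and 7.16 in control pools, with a change of −0.49 (SE 0.09, adjusted p = 0.00357) under 1.5-fold. Elovl5, which elongates polyunsaturated fatty acids, and Elovl1, which makes very long saturated chains, overlapped between groups, with changes of −0.04 (adjusted p = 0.730) and −0.08 (adjusted p = 0.532).

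**Figure D3:**
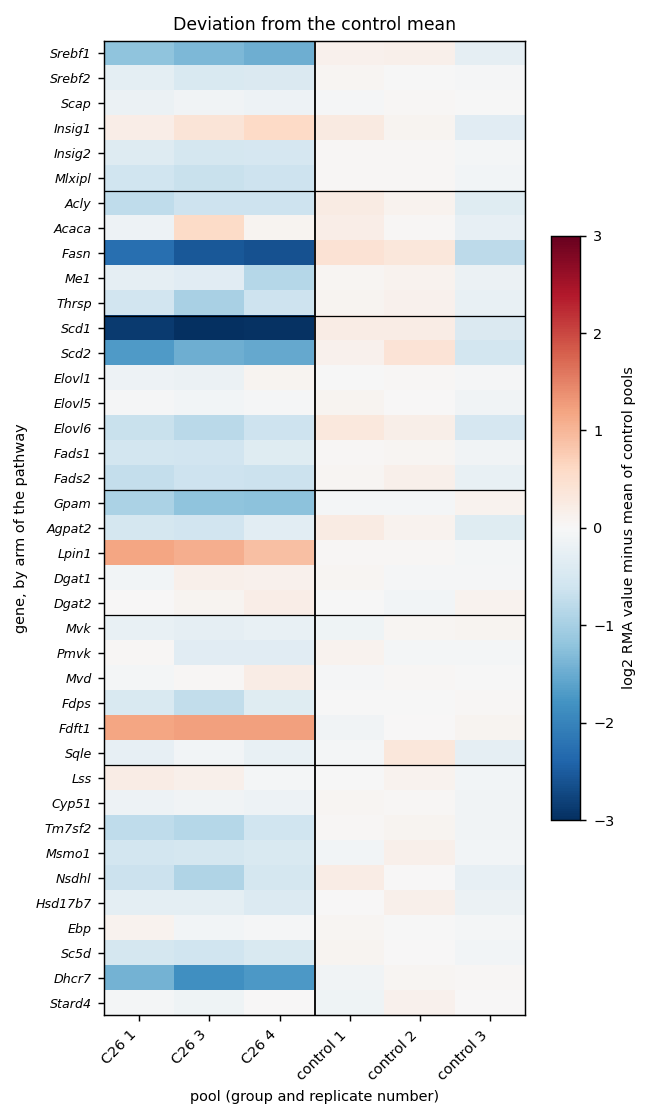
Log2 RMA value of each gene in each pool minus the mean of the 3 control pools (color scale, −3 to 3), with C26 pools left of control pools and genes in the order of the arms. Control replicate 3 is blue in most rows of fatty acid synthesis, desaturation and elongation, at a paler shade than the C26 pools for Fasn, Scd1 and Scd2.

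In triglyceride synthesis 1 of 5 genes fell and 1 rose, with a median change of 0.07. Gpam, the mitochondrial acyltransferase that attaches the initial acyl chain to glycerol phosphate, had 8.40, 8.12 and 8.11 in C26 pools and 9.28, 9.29 and 9.44 in control pools. Its groups did not overlap, and here control replicate 3 was the highest pool. The change was −1.13 (SE 0.10, adjusted p = 8.75e-05), or 2.18-fold. Lpin1 encodes lipin 1, the phosphatidate phosphatase that makes diacylglycerol, which also acts in the nucleus as a coactivator. It had 10.71, 10.60 and 10.41 in C26 pools and 9.54, 9.55 and 9.46 in control pools. All C26 pools were above all control pools, and the log2 fold change was 1.06 (SE 0.09, adjusted p = 7.45e-05), or 2.08-fold higher.

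The other 3 triglyceride genes overlapped between the groups. Agpat2, which adds the next acyl chain, had 6.49, 6.44 and 6.69 in C26 pools and 7.27, 7.11 and 6.65 in control pools. Control replicate 3 lay among the C26 pools, and the change was −0.47 (SE 0.15, adjusted p = 0.0496), under 1.5-fold. Without control replicate 3 it was −0.65 and was called. Dgat1 and Dgat2, which catalyze the final acylation to triglyceride, had changes of 0.07 (adjusted p = 0.627) and 0.10 (adjusted p = 0.445).

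Of the mevalonate and squalene genes, 6 were measured, 1 rose and none fell, and the median change was −0.20. Fdft1 encodes squalene synthase, which joins farnesyl diphosphate units and commits them to sterols. It had 10.12, 10.17 and 10.17 in C26 pools and 8.85, 8.95 and 9.04 in control pools. The groups were tight and did not overlap, and the log2 fold change was 1.21 (SE 0.08, adjusted p = 1.83e-05), or 2.31-fold higher.

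The neighbors of Fdft1 did not rise. Fdps, which makes farnesyl diphosphate for squalene synthase, had 5.69, 5.41 and 5.78 in C26 pools and 6.14, 6.13 and 6.17 in control pools. It was lower without overlap, but its change of −0.52 (SE 0.10, adjusted p = 0.00519) was under 1.5-fold. Without C26 replicate 4 it was −0.60 and was called. Sqle, the squalene epoxidase that acts after squalene synthase, had 4.03, 4.18 and 4.05 in C26 pools and 4.21, 4.61 and 4.01 in control pools, and its groups overlapped (change −0.19, adjusted p = 0.375). The kinases and decarboxylase of the mevalonate steps had changes of −0.24 for Mvk (adjusted p = 0.0557), −0.21 for Pmvk (adjusted p = 0.207) and 0.07 for Mvd (adjusted p = 0.632).

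In the arm of lanosterol to cholesterol steps, which also holds Lss and the sterol carrier Stard4, 3 of 10 genes fell and none rose. The median change of this arm was −0.42. Dhcr7, the reductase of the final step to cholesterol in this branch, had 4.82, 4.38 and 4.50 in C26 pools and 6.14, 6.28 and 6.27 in control pools. The groups were far apart, and control replicate 3 was among the other control pools. The log2 fold change was −1.66 (SE 0.12, adjusted p = 2.52e-05), or 3.17-fold. Dhcr7 had the largest fall of the sterol genes measured.

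Tm7sf2, a sterol reductase that acts after lanosterol demethylation, had 4.70, 4.61 and 4.86 in C26 pools and 5.49, 5.55 and 5.35 in control pools. It fell without overlap, with a log2 change of −0.74 (SE 0.09, adjusted p = 0.000554). Nsdhl, a dehydrogenase that removes the methyl groups of the ring, had 5.44, 5.17 and 5.55 in C26 pools and 6.31, 6.10 and 5.84 in control pools. Its pools did not overlap, and its change was −0.69 (SE 0.14, adjusted p = 0.00525), which became −0.58 and just under 1.5-fold without control replicate 1. It was −0.81 against control replicates 1 and 2 and −0.46 against control replicate 3, and tests with equal (adjusted p = 0.0646) or unequal variances (adjusted p = 0.0864) did not call it.

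The partners of Nsdhl in methyl group removal were lower too, by less than 1.5-fold. Msmo1, the methylsterol oxidase, had 5.80, 5.82 and 5.88 in C26 pools and 6.26, 6.50 and 6.27 in control pools (change −0.51, adjusted p = 0.00275). Hsd17b7, the ketosteroid reductase, had 5.91, 5.91 and 5.78 in C26 pools and 6.21, 6.34 and 6.02 in control pools (change −0.32, adjusted p = 0.0356). Sc5d, the desaturase just before Dhcr7, had 6.27, 6.21 and 6.36 in C26 pools and 6.89, 6.81 and 6.71 in control pools (change −0.52, adjusted p = 0.00158). None of these 3 genes overlapped between groups.

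The remaining 4 sterol genes had small changes. Cyp51, the lanosterol demethylase, was close to the background and had a change of −0.13 (adjusted p = 0.232). Lss, which closes the rings to lanosterol, had a change of 0.11 (adjusted p = 0.443), and Ebp, a sterol isomerase, one of −0.003 (adjusted p = 0.983). Stard4, which carries cholesterol between membranes, had a change of −0.06 (adjusted p = 0.694).

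Differences between paralogs were compared in 6 pairs as the difference of their changes, with an exact two-sided permutation test over the 6 pools whose smallest possible p is 0.1. For Scd1 minus Scd2 the difference of changes was −1.41 (SE 0.16, exact p = 0.1, adjusted p = 0.15). Srebf1 minus Srebf2 gave −0.95 (SE 0.12), Elovl6 minus Elovl5 gave −0.66 (SE 0.21) and Insig1 minus Insig2 gave 0.87 (SE 0.21), each with the same exact p. In these 4 pairs the within-array differences did not overlap between groups, which gives the smallest p this test can reach with 3 pools against 3. Fads1 minus Fads2 gave 0.17 (SE 0.09, exact p = 0.2) and Dgat1 minus Dgat2 gave −0.03 (SE 0.08, exact p = 0.9), with overlap in both.

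Other genes of the pathway, from a list of enzymes outside the 42, did not show a common direction. Of 34 enzymes 32 were measured, 3 rose, 2 fell and the median change was −0.05, that of all probe sets. Only 24 of the 32 lay above the background level in at least 1 group. Hacd1, the dehydratase of fatty acid elongation that muscle uses, had 8.71, 8.29 and 8.32 in C26 pools and 9.95, 9.95 and 9.92 in control pools, with a change of −1.50 (adjusted p = 3.91e-05). Slc25a1, the carrier that exports citrate for Acly, had 5.83, 5.97 and 5.73 in C26 pools and 7.07, 7.12 and 6.37 in control pools, with a change of −1.01 (adjusted p = 0.00348). Both fell without overlap, and the change of Slc25a1 was −1.25 against control replicates 1 and 2 and −0.53 against control replicate 3. The genes that rose were Acacb, the carboxylase at mitochondria whose malonyl-CoA restrains fatty acid oxidation (0.92, adjusted p = 0.000153), Lpin2, a paralog of Lpin1 (0.75, adjusted p = 0.00136), and Hacd3, another dehydratase (0.61, adjusted p = 0.00169).

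Of 25 genes of SREBP processing, LXR signaling and sterol handling, 19 were measured, 2 rose, 1 fell and the median change was 0.11. Npc1, which moves cholesterol out of lysosomes, had 10.03, 9.90 and 9.81 in C26 pools and 7.79, 7.83 and 7.55 in control pools and rose by 2.19. Sirt1, a deacetylase with SREBP among its substrates, rose by 0.81 (adjusted p = 0.000195). Fbxw7, the ubiquitin ligase subunit that marks nuclear SREBP for degradation, had 5.23, 5.50 and 5.33 in C26 pools and 6.62, 6.43 and 6.38 in control pools and fell by 1.12 (adjusted p = 8.57e-05). The proteases that cleave SREBP, Mbtps1 and Mbtps2, had changes of 0.02 and 0.21 and were not called. Nr1h3, the gene of LXR alpha, which can induce Srebf1, had a change of 0.51 (adjusted p = 0.00121), under 1.5-fold.

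Markers of other cells that make lipid were measured beside these genes. Of 14 adipocyte markers 12 were measured, 4 fell, none rose and the median change was −0.40. All 12 had a lower mean in C26 pools. Their summed linear signal was 905 to 1044 in C26 pools and 1115 to 1166 in control pools. Fabp4, with means of 9.11 in C26 and 9.17 in control pools, was far brighter than the others and weighs most in this sum. Fabp4, Cidec, Pck1 and Cebpa, the markers with the highest mean over all 6 pools, had changes of −0.06, −0.18, −0.53 and −0.38 and were not called. The 4 that fell, named after their values were seen, were Plin1, Adipoq, Trarg1 and Lep. In control pools alone Plin1 and Trarg1 averaged 6.24 and 6.16, above Cebpa at 6.15. Plin1, the lipid droplet coat of adipocytes, had 4.93, 4.67 and 4.57 in C26 pools and 6.29, 6.37 and 6.06 in control pools, and its change was −1.51. Adipoq had 4.86, 4.59 and 4.88 in C26 pools and 5.50, 5.52 and 5.09 in control pools. In C26 pools the means of Lep (3.74) and Ucp1 (3.53) lay under the background level of 3.82. Ucp1 was also under it in control replicates 1 and 2 (3.50 and 3.80). Control replicate 3 was the lowest control pool in 7 of the 12 adipocyte markers, with a median distance of −0.04 from the mean of the other control pools. The part of adipocytes in the fall of the lipid synthesis genes was not tested.

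Of 13 Schwann cell markers 10 were measured, none was called and the median change was −0.28. Without the minimum fold 5 of the 10 were lower, against 15.8% of all probe sets. In 7 of the 10 every C26 pool lay below every control pool, against 24.6%. All 10 had a lower mean in C26 pools. Their summed linear signal was 569 to 597 in C26 pools and 732 to 929 in control pools, and Pmp22, the brightest of them, weighs most in it. Schwann cells make sterols and fatty acids for myelin. Pmp22, Mbp, Cldn19 and Sox10 had changes of −0.53, −0.37, −0.29 and −0.18. Markers of macrophages and neutrophils moved the other way, with 8 of 11 and 7 of 9 higher and median changes of 0.81 and 1.55. Of the 8 fibroblast markers 3 fell, of 8 endothelial markers 1 rose and 1 fell, and of 4 measured red blood cell markers 3 rose. Of the 12 skeletal muscle markers 1, Mylpf, fell. The part of these cells in the results was not tested.

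**Figure D4:**
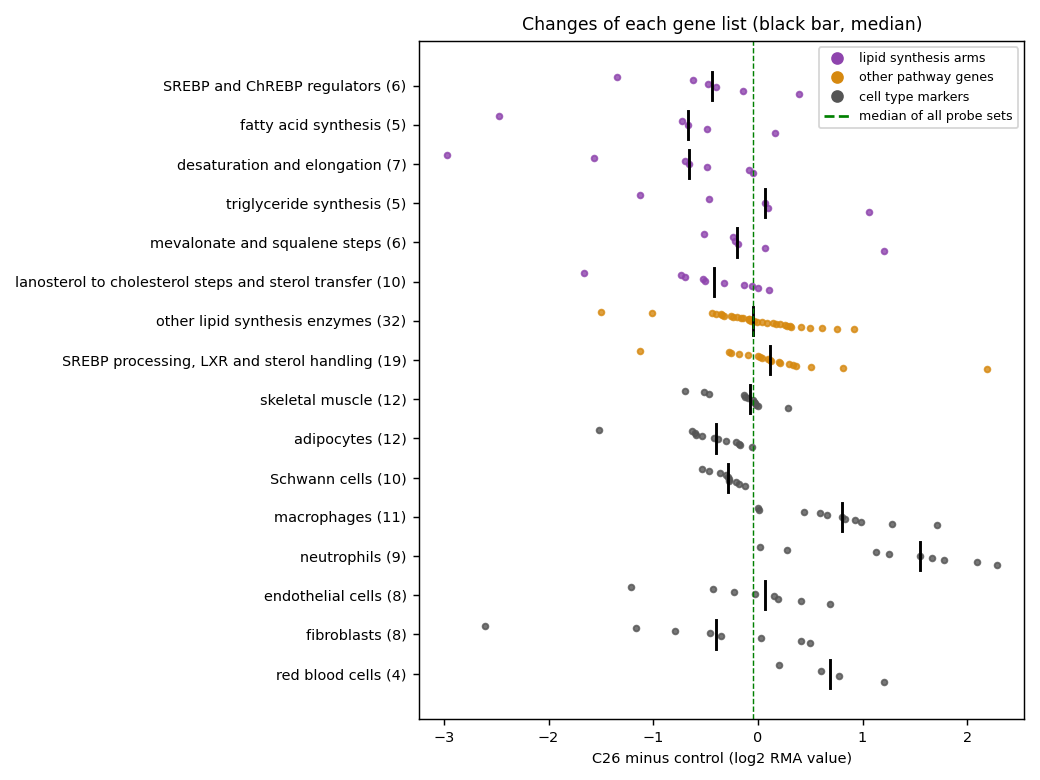
Log2 fold change (C26 minus control, x axis) of each measured gene, 1 point per gene, in the 6 arms, the 2 lists of other pathway genes and the 8 lists of cell type markers (number measured in parentheses); black bars are medians and the dashed line is the median of all probe sets (−0.05). The medians of fatty acid synthesis (−0.67) and of desaturation and elongation (−0.66) lie left of that of the adipocyte markers (−0.40), and that of triglyceride synthesis lies at 0.07.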

How the data were processed

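Total RNA of gastrocnemius and plantaris muscle, with RNA integrity numbers of at least 8.0, was hybridized as 6 pooled samples. The authors made the deposited log2 values with the RMA algorithm in GenePattern. They used version 13 of the Brainarray custom CDF, which has 1 probe set per gene. RMA compresses changes of dim genes. No further normalization was applied. Probe sets were named by the platform annotation, which gave 18782 a unique gene name, 2420 none, 6 several symbols and 4 a shared symbol.

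The two-sided comparison of C26 and control pools used lmFit and eBayes of limma 3.58.1 (R 4.3.3) over all 21212 probe sets. P-values were adjusted by Benjamini-Hochberg, with thresholds of 0.05 and 1.5-fold. The methods name a parametric 2-group test, which was an alternative. Paralog pairs were tested in Python 3.11.15 with SciPy 1.17.1. SE values refer to 3 pools per group, and their number limits the precision. All listed genes are named. The members, the lists and the arms were chosen with earlier results of these data known. Of the lists of other pathway genes, the called genes were named, and of the adipocyte and Schwann cell lists the 4 markers with the highest mean over all pools. Mbtps1, Mbtps2 and Nr1h3 were named beside Srebf1, and a few markers after their values were seen. The alternatives were other tests, thresholds and scalings, a filter on dim probe sets, blocking on the replicate number and omitting each pool. The scripts were tested on simulated data.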

Additional observations from a re-analysis of the deposited data

How the results depend on the processing

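Srebf1, Scd1, Gpam, Lpin1, Fdft1 and Dhcr7 kept their calls under all 17 alternatives. A test with unequal variances gave 760 probe sets higher, 621 lower and 6 of the lipid synthesis genes lower. One with equal variances, the closest to that of the methods, gave 9 lipid synthesis genes lower, with 1131 probe sets higher and 936 lower. Without a minimum fold there were 3041 higher, 3344 lower and 22 lipid synthesis genes lower, and with a minimum of 2-fold 432, 307 and 6. Median centring moved the share of higher calls among all calls to 64.6%, against 54.6% with the deposited values, and no scaling moved the median of all probe sets by more than 0.0646.

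By arm, the regulators lower numbered 1 with median centring, 4 without a minimum fold and 1 at 2-fold. Fatty acid synthesis had 1 lower with equal variances, 0 with unequal variances and 1 at 2-fold, desaturation and elongation 1 with unequal variances and 2 at 2-fold. Without a minimum fold, triglyceride synthesis had 2 lower, mevalonate and squalene steps 1 and the steps from lanosterol 6, the last with 1 at 2-fold. Leaving out each pool gave 2 to 4 lower in desaturation and elongation (2 without control replicate 2), 1 to 2 in triglyceride synthesis (2 without control replicate 3) and 0 to 1 in mevalonate and squalene steps (1 without C26 replicate 4).

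Deviations of same-numbered pools correlated at −0.06 in both shared numbers, and those of differently numbered pools at −0.03 to 0.07. With so few shared numbers, whether the replicate numbers pair the pools cannot be told. With the replicate block 1235 probe sets were higher and 1069 lower, mevalonate and squalene steps had 1 gene lower, and 37 of the 39 calls were the same.

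Sign changes were seen among uncalled genes near 0. With median centring Elovl5 was 0.0216, Ebp 0.0613 and Stard4 0.0091. With quantile normalization Dgat2 was −0.00774 and Ebp 0.0477, and with cyclic loess Ebp was 0.0545 and Stard4 0.0091. With the replicate block Sqle was 0.00104 and Ebp 0.0141. Leaving out each pool gave −0.0336 to 0.322 for Acaca, −0.0129 to 0.126 for Mvd, −0.0599 to 0.0351 for Ebp, −0.121 to 0.00364 for Stard4 and −0.0992 to 0.00509 for the paralog pair Dgat1 minus Dgat2. The cause was not tested.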
